A study of Mus musculus with 4 samples.

Results

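The immune cells of the knockout library were 76 cells of 561 that passed the quality limits, or 13.5% (10.8 to 16.7), in a series of 1558 cell barcodes from mouse embryonic pancreas. They were chosen from the measured counts. A barcode needed 500 genes or more and a mitochondrial share of at most 10% of its UMIs (unique molecular identifiers, 1 per captured transcript). It needed at least 10 UMIs summed over Ptprc, Coro1a, Laptm5, Cd52, Fcer1g and Tyrobp, 6 genes of leukocytes. It also had to stay under 300 counts per 1000000 UMIs (CPM) of Epcam, the epithelial limit, and under 2000 CPM of the collagen genes Col1a1, Col1a2 and Col3a1 together, the limit on mesenchyme.

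The library came from PdxCre;OGTflox/flox;CAG GFP embryos at embryonic day 15.5, sorted by FACS (fluorescence-activated cell sorting) on endogenous GFP and profiled as single cells on the 10x Genomics platform. The control library came from OGTflox/flox embryos of the same day, which carry the floxed Ogt allele without Cre, sorted on E-cadherin GFP. The genotype label of these control embryos reads WT. Pdx Cre acts in the pancreatic epithelial lineage, to which blood cells do not belong, and the labels call the sorted cells pancreatic epithelial cells. The 2 samples of each genotype are repeat sequencing runs of the same material. Each genotype therefore counts as 1 library, no difference below has a replicate check, and genotype and sorting marker cannot be told apart. The number of embryos is not given in the sources used here. Levels of a group of cells are CPM of its summed total. All intervals are exact at 95%, Poisson for levels, conditional binomial for ratios and binomial for shares, and cover counting error only.

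In the mouse fetus, blood cells are made in yolk sac and fetal liver and seed the organs. Neutrophils store antimicrobial proteins in granules that are filled in order, azurophil granules (myeloperoxidase, elastase) first, then specific granules (lactoferrin, cathelicidin) and gelatinase granules. Mast cells store serine proteases and histamine. Lymphoid cells of the fetus include B-cell precursors, which build a surrogate light chain from Igll1 and Vpreb1, T and natural killer (NK) cells, and innate lymphoid cells, some of which make lymphotoxin.

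Sequences upstream of 4 genes are shown, all from the marker lists that place the neutrophil and mast members below. S100a8 (chr3:90668978-90670035, plus strand) and S100a9 (chr3:90692632-90695721, minus strand) encode the subunits of calprotectin and lie 22597 bases apart from end to end on opposite strands. Cma1 (chr14:55941451-55944675, minus strand) encodes mast cell chymase, and Cpa3 (chr3:20215620-20242181, minus strand) encodes mast cell carboxypeptidase. These gene positions are from GENCODE on GRCm38. Each run is the 250 bases before the RefSeq gene start (GRCm38.p6), 5′ to 3′ on the gene's own strand, with capitals for matches to the C/EBP motif TTNNGNAA in the S100 genes and to the GATA motif AGATAA in the mast genes, searched on both strands.
S100a8 (chr3:90668821-90669070, plus strand): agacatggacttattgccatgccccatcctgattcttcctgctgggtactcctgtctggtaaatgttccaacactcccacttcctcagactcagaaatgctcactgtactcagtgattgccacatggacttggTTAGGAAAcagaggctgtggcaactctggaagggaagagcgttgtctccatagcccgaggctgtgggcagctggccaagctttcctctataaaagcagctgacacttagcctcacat
S100a9 (chr3:90695722-90695971, minus strand): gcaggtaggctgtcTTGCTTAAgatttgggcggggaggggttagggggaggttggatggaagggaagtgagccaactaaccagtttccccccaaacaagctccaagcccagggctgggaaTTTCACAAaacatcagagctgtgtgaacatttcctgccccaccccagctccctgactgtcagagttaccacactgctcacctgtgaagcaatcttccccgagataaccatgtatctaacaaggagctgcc
Cma1 (chr14:55944676-55944925, minus strand): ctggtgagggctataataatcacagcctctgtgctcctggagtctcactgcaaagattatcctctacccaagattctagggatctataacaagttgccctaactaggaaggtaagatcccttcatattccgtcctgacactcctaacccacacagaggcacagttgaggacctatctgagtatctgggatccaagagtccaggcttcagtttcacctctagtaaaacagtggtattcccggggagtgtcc
Cpa3 (chr3:20242182-20242431, minus strand): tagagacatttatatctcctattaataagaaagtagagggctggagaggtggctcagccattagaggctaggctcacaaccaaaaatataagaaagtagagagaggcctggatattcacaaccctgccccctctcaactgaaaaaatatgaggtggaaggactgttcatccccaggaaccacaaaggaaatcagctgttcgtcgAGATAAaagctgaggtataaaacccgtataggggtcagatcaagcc
C/EBP and GATA proteins are regulators of granulocyte and mast cell genes. The S100a8 window held 1 C/EBP match and the S100a9 window held 2. The Cpa3 window held 1 GATA match and the Cma1 window held 0. The S100a9 window also held 1 GATA match, which is not in capitals. The C/EBP motif occurred in 36.8% of 32851 windows of the same length and the GATA motif in 9.99%, so a match describes the letters and no more.

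The members matched their label on genes that the rule had not used. Of 12 other leukocyte genes (among them Rac2, Lcp1, Cd53 and Spi1), every member held UMIs of at least 5, with a median of 9.5. Their summed level was 3316 CPM in the 76 members against 141 CPM in the 446 knockout cells with fewer than 10 UMIs of the 6 immune genes, called the outside cells here. Ptprc, which encodes the leukocyte surface protein CD45, and Coro1a, an actin regulator of leukocytes, belong to the rule, so their difference from outside cells is fixed by the choice of members. After each cell was thinned to 5000 UMIs, Ptprc had a UMI in 37.3% of 75 members and in 1.35% of 446 outside cells, and Coro1a had one in 96.0% of members. Before thinning, 73.7% of members held a Ptprc UMI. The other 20 members passed the rule through the other genes.

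Members held 4926 to 37375 UMIs (median 15891) and 1979 to 6545 genes, against a median of 15762.5 UMIs in outside cells. The 6 immune genes held 10 to 230 UMIs per member (median 93.5). Just inside the limits stood a member with 10 immune UMIs, 3 members with 299.4 to 299.5 CPM of Epcam, and a member with 1811 CPM of collagen genes that Scrublet also marked as a doublet, the single mark among members. Just outside stood 11 cells with 6 to 9 immune UMIs. The Epcam limit removed 36 cells past the immune limit and the collagen limit removed 3. Of these 39 cells, 34 held 18 immune UMIs or fewer.

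Some removed cells carried strong immune profiles. A cell with 367 CPM of Epcam held 2828 UMIs of the neutrophil list, more than any member, with 1088 of S100a8, 837 of S100a9 and 341 of Ngp. A cell with 421 CPM of Epcam held 82 UMIs of Cma1, 77 of Cpa3 and 51 of Tpsb2 with 18 immune UMIs. A cell with 318 CPM of Epcam held 41 UMIs of Ltb and 17 of Cd7. The member counts below leave these cells out.

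RNA of pancreatic cells was present in the members. Cpa1, an acinar digestive enzyme, stood at 910 CPM in members and 2814 CPM in outside cells, and the 10 acinar genes together at 5832 CPM against 13233 CPM. The acinar level was similar from class to class, from 5451 CPM in the lymphoid class to 7091 CPM in the neutrophil class over the 6 classes of at least 7 cells that are described below. Pdx1, a transcription factor of the pancreatic lineage, had a UMI in 2.67% of thinned members and 10.5% of thinned outside cells. Red cell genes were almost absent, with 10 UMIs of 9 genes in the 76 members.

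Each member was placed by the marker list that held most UMIs in it, provided that list had at least 10 UMIs over at least 3 genes. This is a range of a per-cell sum and not a cell type. The list genes place the members. A list gene's higher level in its own class than in the other members therefore follows from the placing. Macrophage genes led 18 members, or 23.7% (14.7 to 34.8). Monocyte genes led 16 (21.1%, 12.5 to 31.9), lymphoid genes 13 (17.1%, 9.43 to 27.5), neutrophil genes 11 (14.5%, 7.45 to 24.4), mast genes 8 (10.5%, 4.66 to 19.7) and antigen-presentation genes, the dendritic list, 7 (9.21%, 3.78 to 18.1). Eosinophil and basophil genes led 1 member, megakaryocyte genes 0, and 2 stayed unclassified. In 13 members the UMIs of the second list came within a factor of 2 of the first, called near below. The classes depended on the scoring. When each list gene was scaled to its highest member level, 24 of the 76 members changed class, with 28 led by monocyte genes, 14 by macrophage genes, 11 by lymphoid genes, 9 by mast genes, 5 by dendritic genes and 2 by neutrophil genes.

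**Figure D1:**
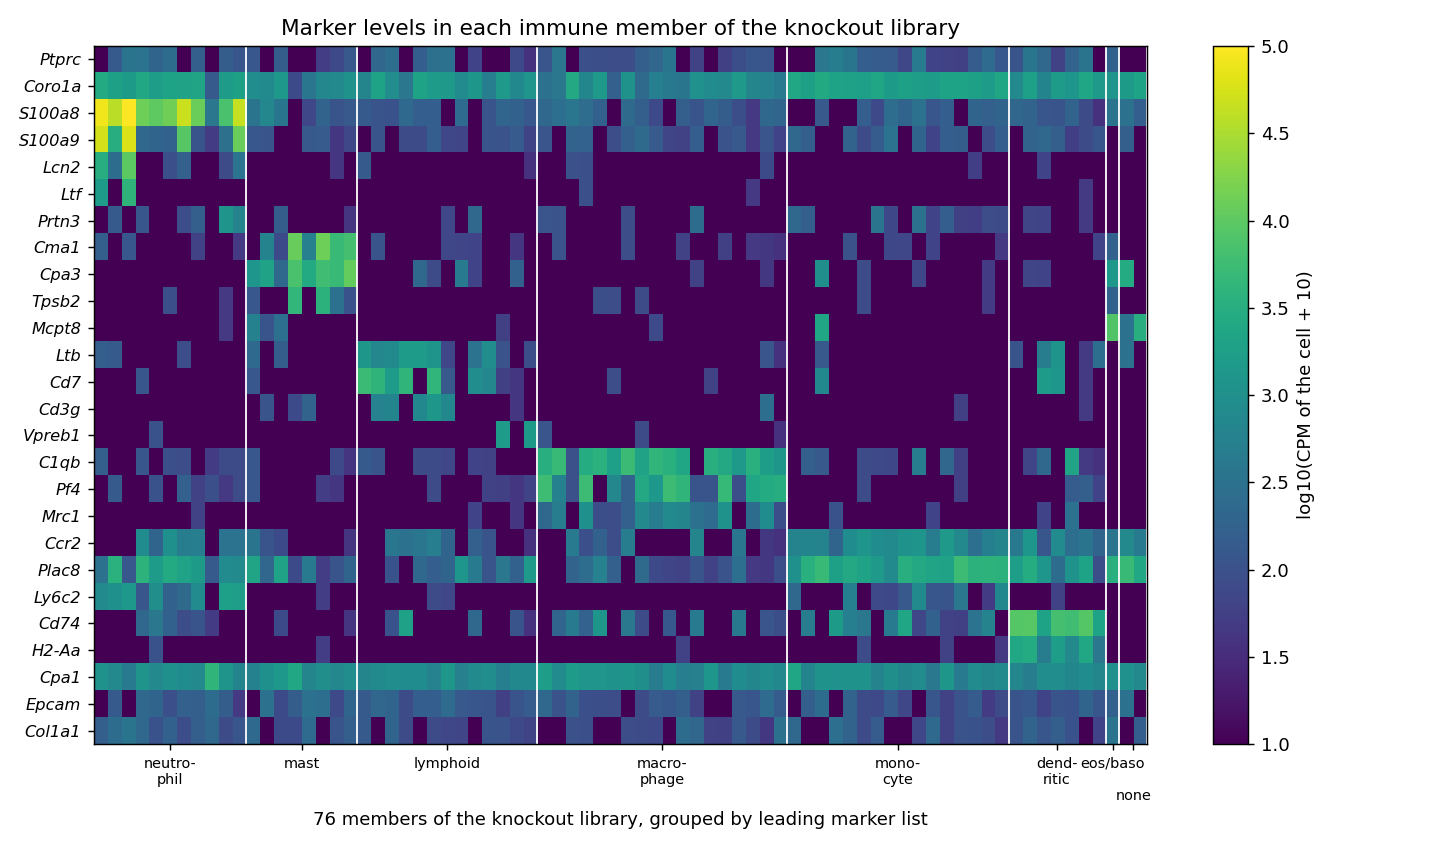
Level of 26 genes (rows) in the 76 immune cells of the knockout library (columns, grouped by leading marker list and ordered by UMIs within a group), as log10 of the cell's CPM plus 10 on the colour scale. S100a8 is highest in the neutrophil group, Cma1 and Cpa3 in the mast group, C1qb and Pf4 in the macrophage group and Cd74 in the dendritic group, while Cpa1 is present across the groups.

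By the same rule the control library held 814 immune cells of 925 (88.0%), and its mix of classes differed. This share goes against the control library's label of pancreatic epithelial cells and its sort on E-cadherin. Cdh1, the E-cadherin gene, had a UMI in 16.3% of the 925 control cells and 56.3% of the 561 knockout cells, without thinning. The control values below are those of the library labelled control. Macrophage genes led 612 of these 814 control cells (75.2%, 72.1 to 78.1) and monocyte genes 166 (20.4%, 17.7 to 23.3). The neutrophil list led 13 control cells (1.60%), the mast list 1 (0.123%), the dendritic list 16 (1.97%) and the lymphoid list 0, for which the exact upper limit is 0.452%. With scaled scoring, monocyte genes led 36.8% of knockout and 36.7% of control immune cells, macrophage genes 18.4% and 59.2%, and neutrophil genes 2 of 76 and 6 of 814. The sorts differed between the libraries, and the reason for the different mix was not tested. Counts of a few transcripts do not depend on the classes, but without thinning they depend on depth. Control immune cells held a median of 10618.5 UMIs against 15891 in knockout members. At least 10 UMIs of Cd7 and Ltb together were found in 11 of 76 knockout members and 0 of 814 control cells. At least 20 UMIs of Cma1, Cpa3 and Tpsb2 together were found in 6 of 76 and 2 of 814, and at least 20 UMIs of S100a9 in 5 of 76 and 1 of 814. In thinned cells these 3 counts were 7, 5 and 4 of 75 knockout members and 0, 0 and 1 of 743 control cells. Without thinning, at least 50 UMIs of S100a8 were found in 10 of 76 and 16 of 814. At least 5 UMIs of Elane, Mpo and Prtn3 together were found in 6 of 76 and 30 of 814.

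**Figure D2:**
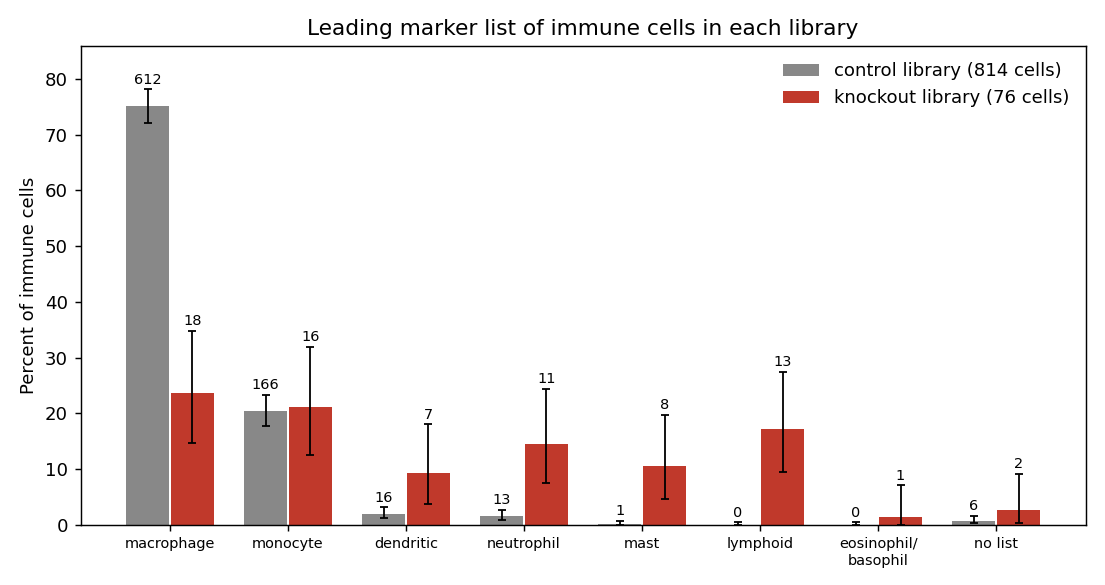
Percent of immune cells led by each marker list in the control library (grey, 814 cells) and the knockout library (red, 76 cells), with cell counts above the bars and error bars for exact 95% binomial intervals. Macrophage genes led 75.2% of control and 23.7% of knockout immune cells, while the neutrophil, mast, lymphoid and dendritic shares were larger in the knockout library.

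The 11 neutrophil-list members were not uniform. S100a8 stood at 27033 CPM in them (26252 to 27831) and S100a9 at 8367 CPM (7935 to 8816). S100a8 ranged from 9 to 1245 UMIs per cell (median 250.0) and S100a9 from 1 to 533 (median 8). The S100a9 level was 5476 CPM without the highest cell and 12932 CPM as the mean over cells. The S100a9 UMIs came mainly from 4 cells with 117, 349, 362 and 533, another held 25, and the other 6 held 1 to 8. Stfa1, a stefin that inhibits cysteine proteases, had 0 to 340 UMIs per cell (median 85). The stefin A genes Stfa1, Stfa2, Stfa2l1 and Stfa3 are near-identical copies, so their separate counts are uncertain.

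Granule genes split the neutrophil-list cells into sets. Cells 1 and 3 held specific and gelatinase granule genes: Ltf, lactoferrin, at 10 and 35 UMIs, Camp, cathelicidin, at 33 and 63, Retnlg at 83 and 197, and Mmp9, gelatinase B, at 10 and 19. Mmp8, a collagenase of specific granules, had 20 and 33 UMIs in these cells, but also 19 in cell 7, and Lcn2, lipocalin 2, had 20 and 85 with 9 in cell 11. Their monocyte gene Ccr2, a chemokine receptor, had 0 UMIs in both. Cells 10 and 11 held the azurophil genes Prtn3, proteinase 3, at 33 and 17 UMIs and Elane, elastase, at 1 and 8, together with 50 and 47 UMIs of Ly6c2, a surface gene of monocytes and their precursors. They held 17 and 20 UMIs of Fcnb, a ficolin, 9 UMIs of Ccr2 each, and 3 and 5 UMIs of Mki67, a proliferation gene. No specific granule transcript of Ltf, Camp or Ngp was found in either.

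In 6 of the other 7 cells S100a8 and Stfa1 occurred with monocyte-list genes. Cells 2, 4, 5, 6, 7 and 8 held 108 to 612 UMIs of S100a8, 34 to 224 of Stfa1, 17 to 36 of Plac8 and 4 to 17 of Ms4a6c, the last 2 being genes of the monocyte list, with Ltf at 0. Cell 7 was the highest of the 6 in S100a8, S100a9 (117 UMIs), Stfa1 and Mmp8. Cell 9 held 9 UMIs of S100a8 and 3 of Plac8 with 10 immune UMIs, and Stfa1 was at 0. When S100a8 and S100a9 were left out of the list, 8 of the 11 members moved to the monocyte class and 2 remained. The defining neutrophil surface gene Ly6g had 2 UMIs in 1 cell, Csf3r, the receptor for the granulocyte growth factor, had 8 UMIs in 6 cells, and Cebpe, a regulator of granule genes, had 15 UMIs in 6 cells. The azurophil gene Ctsg had 0 UMIs in the class. Ltf, Retnlg, Mmp9 and Cd177 thus set apart cells 1 and 3, Mmp8 was shared with cell 7, and no neutrophil name is given to the other 9 beyond their leading list.

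**Figure D3:**
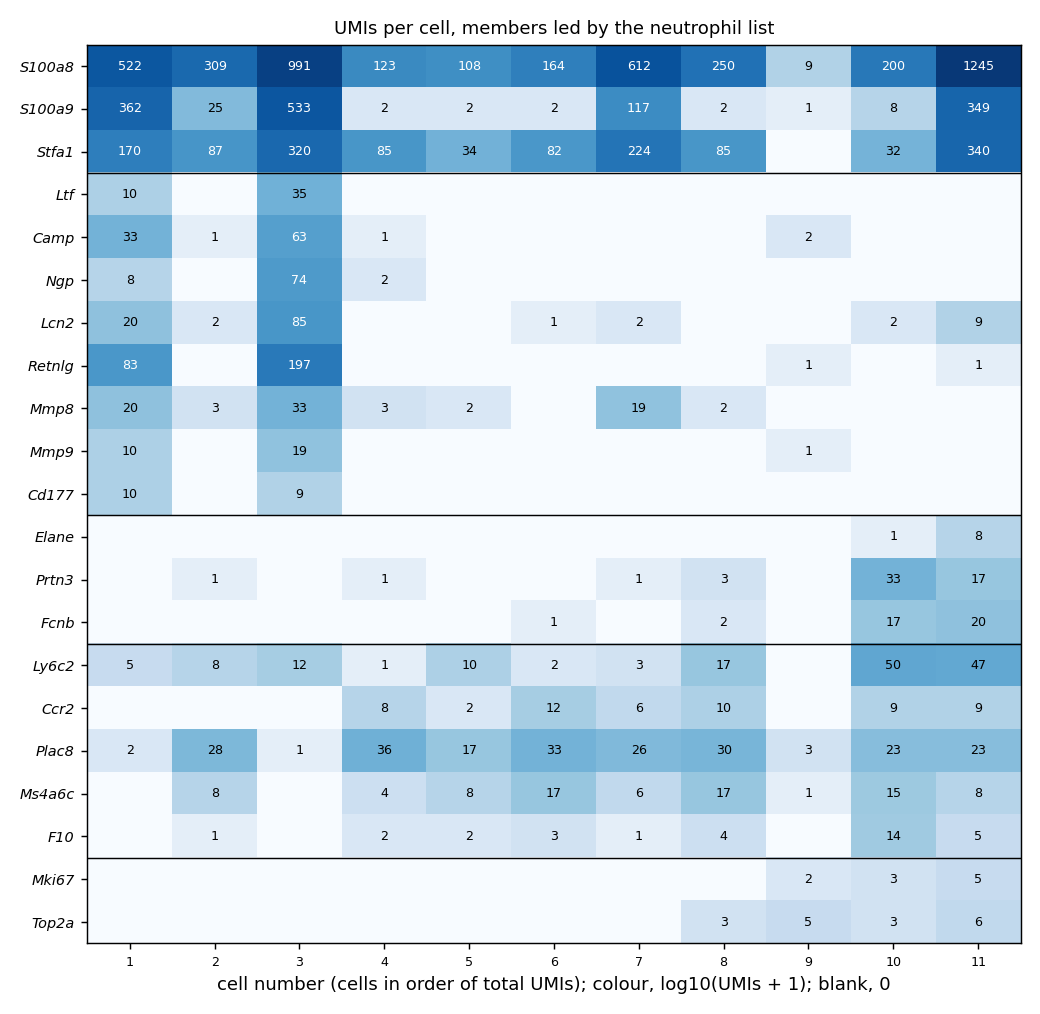
UMIs per cell of 21 genes (rows) in the 11 members led by the neutrophil list (columns), with the count printed in each field, colour as log10 of UMIs plus 1, and blank fields at 0. Ltf and Cd177 appear in cells 1 and 3, Prtn3 is highest in cells 10 and 11, and Plac8 reaches 17 to 36 UMIs in cells 2 and 4 to 8.

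S100 transcripts also occurred at a low level elsewhere in the library. In the other 65 members S100a8 stood at 141 CPM (120 to 164), against 148 CPM (140 to 157) in the 446 outside cells. S100a9 stood at 90.3 CPM and 86.4 CPM in the same groups. Members led by the neutrophil list were left out of the first group. The second left out every cell with 10 or more immune UMIs, among them the removed cell with 2828 UMIs of that list. These groups were cut in different ways, so the closeness of the values is not read further. A UMI of S100a8 was present in 53.4% of thinned outside cells. The 4 azurophil genes together stood at 9.80 CPM in outside cells and 411 CPM in the neutrophil class.

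Mast proteases marked 4 members strongly and 2 more at a lower level. In the mast class of 8 cells, Cma1 stood at 5675 CPM (5299 to 6069) and Cpa3 at 5588 CPM (5216 to 5980), against 20.9 and 51.4 CPM in the other 68 members. Cma1 ranged from 0 to 299 UMIs per cell (median 80.5) and Cpa3 from 3 to 369 (median 73). Tpsb2, a tryptase, stood at 1075 CPM, or 598 CPM without the highest cell, and ranged from 0 to 85 UMIs. Tpsg1, another tryptase, had 53 UMIs in 4 of the 8 cells and 0 in the other members, at least 135-fold higher with 3 counts in place of 0. Cells 4, 6, 7 and 8 held 152 to 299 UMIs of Cma1 and were the 4 cells with Tpsg1. Cells 2 and 5 held 6 and 9 UMIs of Cma1 with 20 and 46 of Cpa3, and 0 of Tpsb2 and Tpsg1. Cells 2 and 5 also stood just under the Epcam limit, at 299.4 and 299.5 CPM, with 24 and 25 immune UMIs.

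The receptor and regulator genes in mast cells 2 and 4 to 8 were those known from mast cells and their precursors. Kit, the stem cell factor receptor that mast cells need, had 2 to 11 UMIs in each of cells 2 and 4 to 8, and 0 in mast cells 1 and 3. Hdc, the enzyme that makes histamine, stood at 1168 CPM in the class with 8 to 52 UMIs per cell. Gata2, a transcription factor of mast and progenitor cells, stood at 674 CPM with 4 to 32 UMIs per cell. Srgn, the granule proteoglycan serglycin, stood at 2557 CPM against 410 CPM in the other members. Cd34, a progenitor surface gene, had 27 UMIs in 6 of the 8 cells, and Il1rl1, the receptor for interleukin-33, had 25 UMIs in 7. Of the 11 mast protease genes followed, Mcpt1, Mcpt2, Mcpt4 and Tpsab1 had 0 UMIs in the class, as did the receptors Fcer1a, Mrgprb1 and Mrgprb2.

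Mast cells 1 and 3 resembled another set. Mcpt8 and Cd200r3, genes of basophils, together had at least 5 UMIs in 6 members, a set chosen after its values were seen: mast cells 1 and 3, monocyte cell 3, the eosinophil and basophil member, and both unclassified members. Mcpt8 had 5, 4, 18, 50, 2 and 22 UMIs in these cells in that order, and Cd200r3 had 12, 4, 1, 3, 5 and 9. Ifitm1, an interferon-induced membrane gene, had 59 to 189 UMIs in the 6 cells and 3 to 8 in the other 6 mast cells. The chemokine genes Ccl3 (25 to 77 UMIs) and Ccl9 (15 to 70) were as distinct, with at most 2 and 1 UMIs in the other 6 mast cells. Cma1 had at most 1 UMI in each of the 6 members of the set. Cpa3 had 0 to 19 UMIs in the set and 20 to 369 in the other 6 mast cells, so its ranges almost met. In mast cell 3 the mast and monocyte lists tied at 33 UMIs. The pattern was thus spread over 4 classes. In the control library 2 of 814 immune cells reached 5 UMIs of Mcpt8 and Cd200r3.

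**Figure D4:**
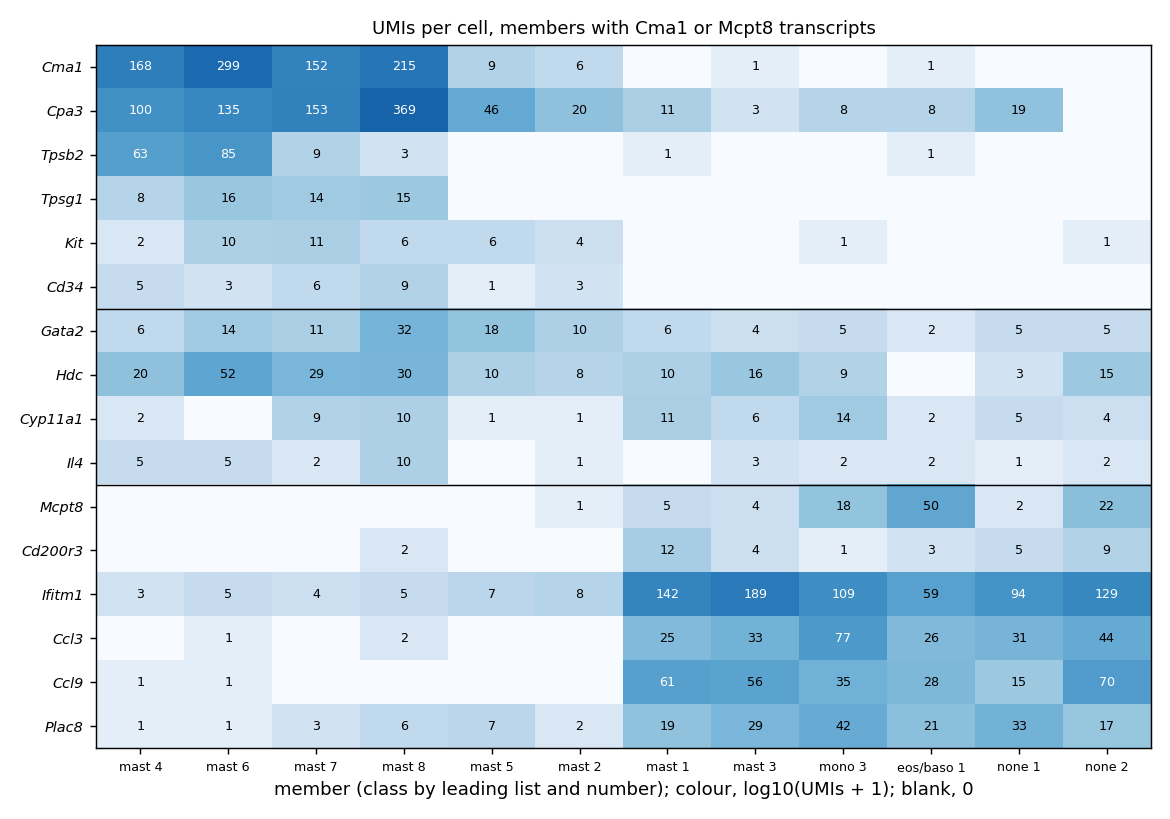
UMIs per cell of 16 genes (rows) in 12 members (columns), the 6 protease-rich mast cells on the left and the 6 members with Mcpt8 or Cd200r3 on the right, with counts printed, colour as log10 of UMIs plus 1, and blank fields at 0. Cma1 has 6 to 299 UMIs on the left and at most 1 on the right, Ifitm1 has 3 to 8 UMIs on the left and 59 to 189 on the right, and Hdc and Gata2 appear on both sides.

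Mast transcripts were present at a low level in other cells too. Cma1 stood at 20.9 CPM (13.4 to 31.1) in the other members and 23.4 CPM (20.1 to 27.0) in the outside cells, and had a UMI in 10.3% of thinned outside cells against 87.5% of the 8 mast-class cells. Among the 446 outside cells, 2 held at least 20 UMIs of Cma1, Cpa3 and Tpsb2. Cpa3 was at 51.4 CPM (39.1 to 66.3) in the other members and at 15.1 to 21.2 CPM, with 143 UMIs, in outside cells. Of the 59 UMIs of Cpa3 in the other members, 35 were in members of the set with Mcpt8 and Cd200r3, and without that set the level was 21.4 CPM (13.7 to 31.9).

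The lymphoid list led 13 members, of which 10 held Cd7 and 11 held Ltb. Id2, a transcriptional regulator of innate lymphoid cells, had 1 to 20 UMIs in all 13 cells, and Sept1 and Evl, cytoskeletal genes, also had UMIs in each. Cd7 (chr11:121036747-121039418, minus strand), a surface gene of early lymphoid, T and NK cells, stood at 1097 CPM (966 to 1241) against 60.9 CPM in the other members. Ltb (chr17:35194439-35196320, plus strand), lymphotoxin beta, stood at 505 CPM (417 to 606) against 54.3 CPM. Cd7 had 0 to 60 UMIs per cell (median 14) and Ltb 0 to 22 (median 7). Tcf7, a transcription factor of T and innate lymphoid cells, stood at 344 CPM and had UMIs in 10 of 13 cells. In contrast to S100a8 and Cma1, these transcripts were scarce outside, with 4.77 CPM of Cd7 and 4.02 CPM of Ltb in outside cells.

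Cells 11 and 13 of the class held the B-lineage programme. Igll1 (chr16:16860671-16863985, minus strand) had 52 and 91 UMIs in them and Vpreb1 (chr16:16868403-16870843, minus strand) 34 and 54. Both encode parts of the surrogate light chain of pre-B cells. Vpreb3 had 50 and 76 UMIs, Cd79a, a signalling subunit of the B cell receptor, 37 and 55, and Ebf1, a B-lineage transcription factor, 23 and 42. Igll1, Vpreb1, Cd79a and Ebf1 had 0 UMIs in the other 11 lymphoid cells. Vpreb1 and Vpreb2 are near-identical, and the 22 UMIs of Vpreb2 in the class may belong to either. Ms4a1, a gene of mature B cells, and Dntt had 0 UMIs, Rag1 had 1 and Rag2 had 2.

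Cells 2, 3 and 6 combined Cd7 with NK and T genes. Klrd1, an NK receptor subunit, had 6, 15 and 19 UMIs in them, and Cd3g, a subunit of the T cell receptor complex, 6, 7 and 18. Tbx21, which encodes T-bet, had 3, 3 and 1 UMIs in them and 0 in the other 10 cells. Ncr1 and Cd8a had 0 UMIs in the class, and Cd3e had 1 UMI. The T cell receptor constant genes were not analysed here, so NK and T identities could not be separated by them.

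Other lymphoid members each had a profile of their own. Cell 5 was the single member with at least 5 UMIs of Cd163l1, a scavenger receptor gene known from gamma-delta T cells, at 21, and it also held 10 UMIs of Cd3g and 11 of Ccr9, a homing receptor. Cell 7 held 12 UMIs of Cd3g and 8 of Gata3. Cell 8 held 14 UMIs of Tcf7 and 9 of Gata3, a regulator of T and group 2 innate lymphoid cells, with Cd7 and Ltb at 0. Cells 9 and 12 held 17 and 21 UMIs of Nkg7, a cytotoxic granule gene. Cell 10 held 28 UMIs of Lta, lymphotoxin alpha, and 18 of Ltb. Cells 1 and 4 held 41 and 57 UMIs of Cd7 with 10 and 22 of Ltb, and 0 of Cd3g and Klrd1. Arg1, the arginine-degrading enzyme arginase, was among the leading genes of the class with 65 UMIs in 7 cells.

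**Figure D5:**
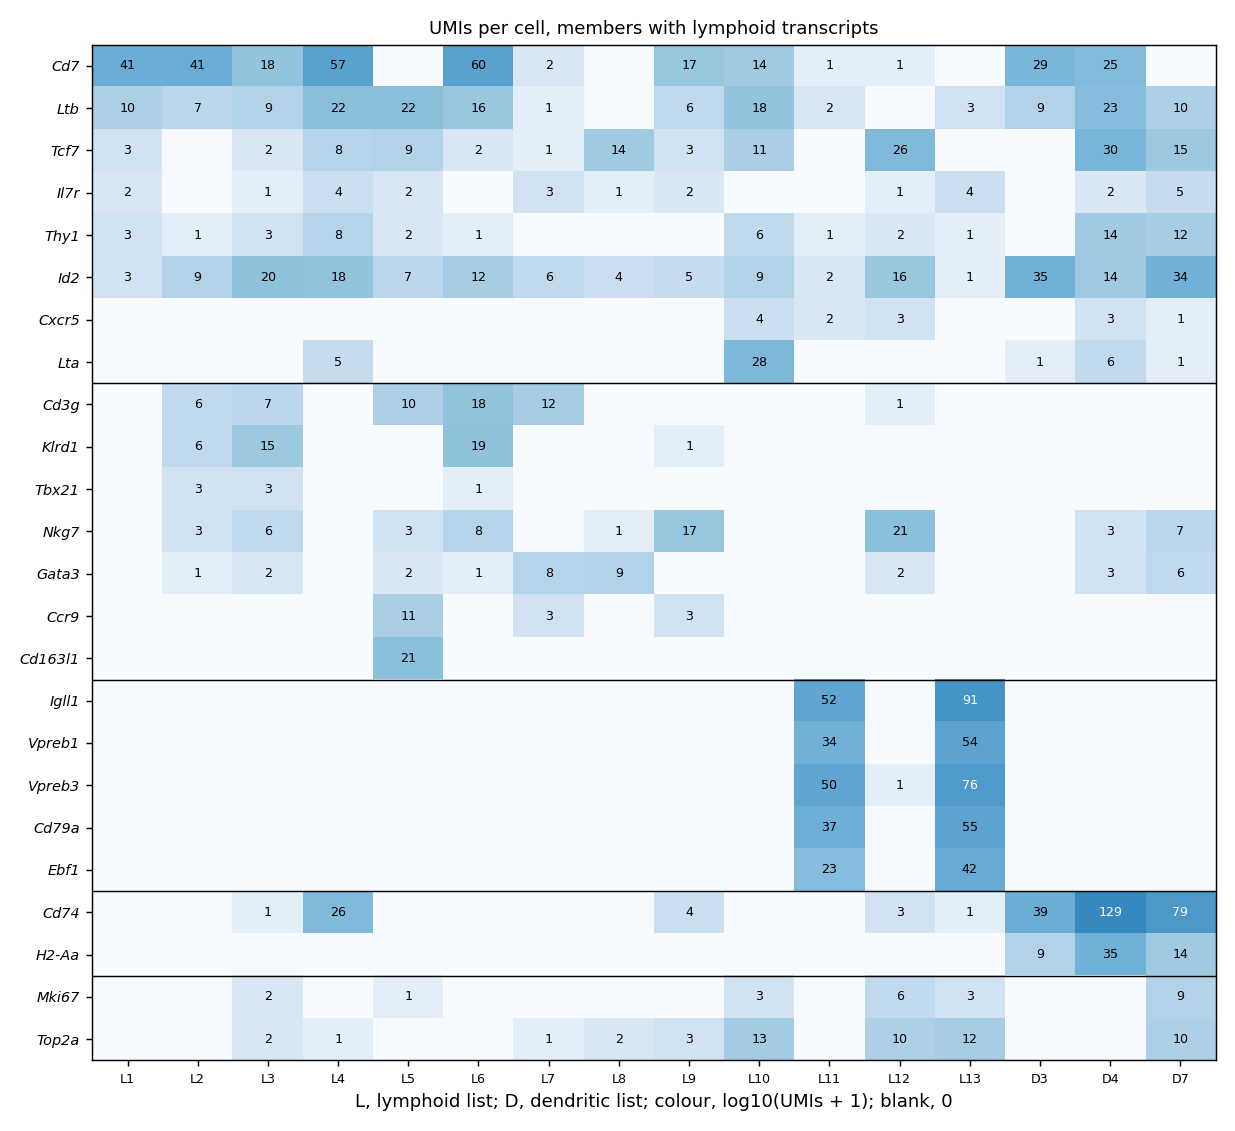
UMIs per cell of 24 genes (rows) in the 13 members led by the lymphoid list (L1 to L13) and 3 members led by the dendritic list (D3, D4 and D7), with counts printed, colour as log10 of UMIs plus 1, and blank fields at 0. The B-lineage genes fill L11 and L13, Klrd1 reaches 6 to 19 UMIs in L2, L3 and L6, and D3, D4 and D7 hold Cd74 together with 9 to 23 UMIs of Ltb.

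The dendritic list led 7 members through genes of antigen presentation. Cd74, the invariant chain of class II molecules, had 39 to 233 UMIs per cell (median 129) and stood at 5627 CPM against 182 CPM in the other members. H2-Aa, a class II chain, had 9 to 67 UMIs (median 25). Flt3, the growth factor receptor of dendritic cells, had 4 UMIs in 3 cells, and Clec9a, Xcr1, Siglech, Itgax and Zbtb46, markers of dendritic subtypes, had 0 UMIs, and Cd209a had 1. Ccr7, the receptor that guides dendritic cells and lymphocytes to lymph nodes, had 2, 2 and 4 UMIs in cells 3, 4 and 7 and 0 in the other 4. Batf3, a transcription factor of dendritic cells, had 4 UMIs in each of these 3 cells, and Fscn1, an actin-bundling gene of mature dendritic cells, had 13, 3 and 1. Both were at 0 in the other 4 cells and were picked after their values were seen. Cells 3, 4 and 7 also held lymphoid genes, with 9, 23 and 10 UMIs of Ltb, and 0, 30 and 15 of Tcf7. Cd7 had 29, 25 and 0 UMIs in them and Thy1 had 0, 14 and 12. Their lymphoid list summed to 47, 111 and 85 UMIs, against 55, 228 and 125 of the dendritic list. Cell 5 held 47 UMIs of C1qb, a complement gene of macrophages. The class was thus a mixed set of cells with class II genes, in which Ccr7, Batf3 and Fscn1 occurred in the 3 cells with Ltb above 1 UMI. Outside the immune cells, H2-Aa stood at 5.91 CPM.

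Macrophage and monocyte genes led 34 members. C1qb stood at 2455 CPM in the macrophage class and Pf4, a chemokine, at 2244 CPM, with UMIs of each in 17 of 18 cells. Lyve1, a hyaluronan receptor of tissue macrophages, had 135 UMIs in 9 of the 18 cells, and Timd4, a receptor of long-lived resident macrophages, had 5 UMIs in 4. Hmox1, the enzyme that degrades haem, had a median of 2 UMIs and a highest value of 232, so its 1400 CPM rests on few cells. In the monocyte class Plac8 stood at 2983 CPM and Ccr2 at 761 CPM, each with UMIs in all 16 cells. Interferon-induced genes were among the leaders of this class, with Irf7 at 234 CPM in 12 cells, Isg15 at 246 CPM in 10 and Ifitm3 at 3157 CPM in 16.

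Cell division transcripts were present in each of the 6 larger classes. The summed level of 25 mitosis genes was 4561 CPM in the dendritic class, 3265 CPM in the lymphoid class, 1769 CPM in the mast class, 1616 CPM in the neutrophil class, 1491 CPM in the monocyte class and 1235 CPM in the macrophage class, and 1672 CPM in outside cells. A level of at least 2000 CPM was reached by 5 of 7 dendritic-list cells, 6 of 13 lymphoid, 4 of 8 mast, 2 of 11 neutrophil, 3 of 16 monocyte and 2 of 18 macrophage cells. With 24 DNA replication genes the order was another, with 2988 CPM in the neutrophil class and 2873 CPM in the lymphoid class highest. The order of the classes therefore depended on the gene list.

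Ogt (chrX:101640060-101684351, plus strand), the floxed gene, codes for the transferase that attaches O-GlcNAc sugars to proteins. It stood at 48.5 CPM (37.3 to 62.1) in the 76 members with 63 UMIs, and at 60.6 CPM in outside cells. Immune cells of the control library stood at 62.1 CPM (57.3 to 67.2). After thinning, a UMI of Ogt was found in 18.7% of members, 30.9% of outside cells and 28.7% of control immune cells. In the macrophage class Ogt was at 73.4 CPM in the knockout and 66.0 CPM in the control library (ratio 1.11, 0.706 to 1.67). In the monocyte class 5 UMIs gave 19.8 CPM against 50.8 CPM (ratio 0.390, 0.124 to 0.939). Transcripts counted along the gene do not show whether an exon was removed, so these values do not check recombination. Mgea5, the enzyme that removes O-GlcNAc, stood at 37.0 CPM in members and 39.6 CPM in control immune cells.

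The classes shared by both libraries were set side by side gene by gene, as values of 2 libraries. A gene was called when its ratio reached 2 with 10 CPM added to both sides, provided the library with the higher level held 50 or more UMIs of it, spread over 5 or more cells. In the macrophage class 232 of 8542 genes were called (2.72%), 33 higher (0.386%) and 199 lower (2.33%) in the knockout library. In the monocyte class 210 of 4959 were called (4.23%), 28 higher (0.565%) and 182 lower (3.67%). The floor of 50 UMIs is easier to reach in the larger control classes, so fewer genes could be called higher in the knockout library. With a floor of 200 CPM in place of the UMI floor, 44 of 850 macrophage genes were called, 30 higher and 14 lower. In the monocyte class 50 of 885 genes were called, 28 higher and 22 lower, so the direction of most calls turned in both classes. With 50 CPM added to both sides the monocyte split was 26 higher and 23 lower. The neutrophil and dendritic classes were mixed within the knockout library, as described above. Their calls are given as counts alone, 81 of 577 genes in the neutrophil class (14.0%), 46 higher (7.97%) and 35 lower (6.07%), and 104 of 636 in the dendritic class (16.4%), 27 higher (4.25%) and 77 lower (12.1%). The neutrophil split turned to 64 higher and 72 lower of 919 genes with the 200 CPM floor. With a floor of 20 UMIs it was 104 and 111 of 1436 genes.

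The macrophage-list genes also placed the cells in this class in both libraries, so the closeness of their levels is not read further. Of 17 macrophage-list genes measured, 16 stayed within the 2-fold range and 1 was lower, with a median log2 ratio of -0.39 against -0.02 over all 8542 genes. C1qb stood at 2455 CPM in the knockout and 2941 CPM in the control library, Mrc1, the mannose receptor, at 419 and 623 CPM, and Lyve1 at 413 and 422 CPM. Of 25 mitosis genes 6 were lower and 0 higher, with a median of -0.46. Of 7 monocyte-list genes measured 4 were lower and 0 higher, among them Plac8 at 113 against 465 CPM and Ccr2 at 119 against 268 CPM. The UMI floor is easier to reach in the larger control class, so the lack of higher genes in these lists is not read further. Plac8 and Ccr2, and Ly6c2 and Ccl24 below, passed it through the control library alone. They could be called lower but not higher. The monocyte list also competes in placing cells in this class, so its lower calls are not read further. Over all 8542 genes 0.386% were called higher and 2.33% lower. Ly6c2 had 0 UMIs in the knockout macrophage class and stood at 26.3 CPM in the control. Cebpb, a transcription factor of myeloid cells, stood at 263 against 581 CPM, and the chemokine Ccl24 at 91.7 against 232 CPM.

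Red cell transcripts separated the macrophage classes most. The 4 erythroid genes measured were lower in the knockout library, with a median log2 ratio of -5.15. They passed the UMI floor through the control library alone, so their direction was set by the choice of genes. Hbb-bs, adult-type beta globin, stood at 3.06 CPM (1 UMI) against 537 CPM. The sum of all 9 erythroid genes does not depend on that floor. The 9 erythroid genes summed to 3.06 CPM in knockout macrophage-list cells and 1435 CPM in control macrophage-list cells, but to 37.0 CPM in control monocyte-list cells and 32.6 CPM in 24 outside cells of the control library. Among these control groups the sum was highest in the macrophage class. Its spread over the single cells of that class is not given here, and its cause was not tested. Globin reads can be shared between near-identical copies such as Hba-a1 and Hba-a2.

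Genes called higher in knockout macrophage-list cells were also present in the outside cells of that library. Cym, chymosin, stood at 171 CPM against 0.136 CPM (1 UMI in the control class), Col3a1, a fibrillar collagen, at 345 against 15.4 CPM, and Dlk1, a Notch-family ligand of embryonic tissue, at 630 against 49.7 CPM. In those outside cells they stood at 414, 1194 and 2137 CPM. All 33 genes called higher in the macrophage class were higher still in the outside cells, as were 24 of the 28 in the monocyte class. The same share over all tested genes is not given here, so these counts are not read further. The part of RNA from other cells in these differences was not tested.

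Most macrophage-list genes that passed the UMI floor were called lower in the knockout monocyte-list cells. Of 13 macrophage-list genes measured 9 were lower and 0 higher in the knockout library, with a median log2 ratio of -1.69 against -0.04 over all 4959 genes. In the other direction 3 of 5 trunk and ductal genes were higher (median 1.82), as was the 1 mesenchyme gene measured (3.66). The UMI floor is easier to reach in the larger control class, and the macrophage list competes with the monocyte list in placing these cells. Neither the lower calls of macrophage-list genes nor the lack of higher ones is read further. Over all 4959 genes 0.565% were called higher and 3.67% lower. Pf4 stood at 7.93 against 375 CPM and C1qb at 71.4 against 477 CPM. Both passed the UMI floor through the control library alone, so they could be called lower but not higher. In the control library 111 of 166 monocyte-list cells held a second list near the first, in the knockout library 3 of 16. With near cells left out of both libraries fewer genes could be tested. Of 1994 tested genes 99 were then called, 31 higher and 68 lower, in place of 210 of 4959. The monocyte-list genes placed the cells in this class in both libraries, so closeness in them is not read further. Ccr2 stood at 761 against 854 CPM and Plac8 at 2983 against 3193 CPM. Ccl2, a chemokine that recruits monocytes, was higher, at 428 against 140 CPM (ratio 3.07, 2.44 to 3.84), and at 286 CPM without the highest cell. Hspa1a, an inducible heat shock gene, stood at 527 against 124 CPM with UMIs in 7 of the 16 cells, and at 264 CPM without the highest cell. Values of 2 further genes rested on monocyte cell 3, the cell with 18 UMIs of Mcpt8. Ccl4, a chemokine, stood at 349 against 167 CPM with 46 of its 88 UMIs in that cell, and at 172 CPM without it (ratio 1.03, 0.731 to 1.42). Ifitm1 stood at 888 against 157 CPM with 109 of its 224 UMIs in that cell, and at 471 CPM without it. Without the cell 26 monocyte-class genes were higher and 185 lower.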

How the data were processed

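The deposited tables, 1 per genotype, hold raw UMI counts per gene and cell barcode. The authors' processing used Cell Ranger 2.0.0, Seurat 2.0 and DESeq2 1.14.1 on build mm10, per the submitters' processing notes, and the filter that turned barcodes into cells is not given in the sources used here. The knockout library held 617 barcodes with 11064540 UMIs and the control library held 941 with 11973979, with 0 barcodes in common. The sequencing repeats of a genotype are joined in 1 table and could not be separated. Of 27998 gene identifiers, 27645 matched a symbol of GENCODE M21. The other 353 stayed in the totals unnamed.

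The members, gene lists and classes were chosen with earlier results of these data known, and nothing was tested. Counts of a group of cells were summed and scaled to CPM with Python 3.11.15. Intervals are exact at 95%. Ratios of a gene at 0 used 3 counts. For shares, cells were thinned to 5000 UMIs each, which left out 1 member. Scrublet, run through scanpy 1.11.5, marked 8 knockout cells as doublets, which were kept. Interval and call rules were checked on simulated data.

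Genes named were those of the lists with at least 10 UMIs in the members, list genes below that where their absence is the point, the 15 leading genes of each class by ratio to the other members, and the 10 largest called ratios each way against the control class. Predicted genes were not named, and 1 gene of the lymphoid list is not reported here. Alternatives changed each limit of the rule, the class scoring, the scaling (edgeR 4.0.16, DESeq2 1.42.0), count floors, added CPM and thinning. Promoters are RefSeq, GRCm38.p6.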

Additional observations from a re-analysis of the deposited data

How the results depend on the processing

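No paired analysis was possible because the samples of a genotype are sequencing repeats of 1 library and no test was made. The number of members was 33 with Epcam under 100 CPM and stayed within 1.5 times of 76 under the other limits tried. Scaled scoring gave 2 neutrophil-list, 28 monocyte-list, 2 eosinophil and basophil and 5 unclassified members, and changed the class of 24 of 76. Without S100a8 and S100a9 the neutrophil list led 2. With at least 20 list UMIs, 4 members were unclassified. Calls between libraries depended on the filters. With 1 CPM added, 824 of 8542 macrophage and 368 of 4959 monocyte genes were called, and with 50 CPM added 45 and 49. Other filters also changed the number of genes tested. A floor of 200 CPM gave 44 of 850 macrophage, 50 of 885 monocyte and 136 of 919 neutrophil genes. With a floor of 20 UMIs 414 of 7545 monocyte, 308 of 1664 dendritic and 215 of 1436 neutrophil genes were called. With 100 UMIs they were 103 of 3045, 49 of 326 and 33 of 291. Without a filter the macrophage, monocyte, dendritic and neutrophil counts were 595 of 15819, 799 of 13692, 2646 of 11385 and 2534 of 11106. With near members left out the monocyte, dendritic and neutrophil counts were 99 of 1994, 26 of 311 and 41 of 450. With genes of non-member cells left out, the macrophage split was 8 higher and 186 lower and the monocyte split 7 and 170. With 50 CPM added the macrophage split was 29 and 16. The neutrophil split of 46 higher and 35 lower was 60 and 20 with DESeq2 size factors and 50 and 30 with TMM, and the dendritic split of 27 and 77 was 19 and 108 with DESeq2. These scalings shifted log2 ratios by -0.16 (TMM) and -0.15 (DESeq2) in the macrophage, -0.12 and -0.10 in the monocyte, -0.12 and -0.23 in the dendritic and 0.10 and 0.24 in the neutrophil class. Of 39 alternative values of class levels, 30 fell outside the exact interval of the main level and 9 fell inside it. All 13 values from totals that left out abundant genes fell outside. The printed intervals of these levels therefore do not cover the choice of scaling. Of the 39 values, 3 moved by over 1.5 times, 2 of S100a9 and 1 of Tpsb2. Thinned to 2000 UMIs, 54.5% of neutrophil-list cells held S100a9 and 19.7% of members Ptprc. Ptprc reached 52.9% at 8000 UMIs and 73.7% unthinned, and S100a9 100% unthinned. Replication genes gave 2988 CPM in the neutrophil, 2697 in the mast, 2873 in the lymphoid, 1657 in the macrophage and 2409 in the dendritic class. The alternatives listed after the data had been seen were the 200 CPM floor, leaving out genes of non-member cells leaving out near members, and leaving out monocyte cell 3 or the set with Mcpt8 and Cd200r3. The cause of these shifts was not tested.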

Other observations

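Immediate early and stress genes, a list of 20 that includes Fos, Jun, Egr1 and Hspa1a, differed in summed level between the classes of knockout members. The level was 3048 CPM in the lymphoid class, 4333 CPM in the mast class, 5630 CPM in the neutrophil class, 6279 CPM in the macrophage class, 6792 CPM in the dendritic class and 9677 CPM in the monocyte class, against 3289 CPM in outside cells. The eosinophil and basophil member stood at 13271 CPM and the 2 unclassified members at 19830 CPM, and these 3 cells belong to the set with Mcpt8 and Cd200r3.

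No member was led by the megakaryocyte list, but 1 outside cell held 63 UMIs of that list in 5609 UMIs with 0 UMIs of the 6 immune genes used to choose members.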
